A study of Mus musculus with 16 samples.

Results

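The transcripts of the eicosanoid pathway were followed in mouse blood neutrophils through 10 genes, which were taken by symbol from a table of reads counted on 23337 gene symbols. They were the phospholipases Pla2g4a and Pla2g7, the cyclooxygenases Ptgs1 and Ptgs2, the terminal synthase Ptges, the leukotriene genes Alox5, Alox5ap and Lta4h, and the prostaglandin E2 receptors Ptger2 and Ptger4. All 10 were in the table, and 9 of them were among the 9213 genes kept by the filter on low counts. Neutrophils came from the blood of 8 week old C57/Bl6 mice that all carried Ltbr fl/fl. Mice with Mrp8-Cre (LTβRΔN), a transgene active in the neutrophil lineage, lack the lymphotoxin β receptor in neutrophils, and littermates without Cre were controls. By their labels, 7 libraries were control (3 unstimulated, 4 stimulated) and 9 were LTβRΔN (4 unstimulated, 5 stimulated). The treatment protocol describes 2 h with the cytokines TNF (100 ng/ml), IL-6 (50 ng/ml) and GM-CSF (100 ng/ml), and with LIGHT, a ligand of the receptor, present (500 ng/ml) or left out. The series text names the cytokines as the treatment, and no label gives the additions to a single library, so groups are named here by their labels. No label names the animal a library came from. Column names of the count table share a number between 7 unstimulated and 7 stimulated libraries. Its meaning is not stated, and the main fit did not pair them. The p-values measure the spread between these libraries only.

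Eicosanoids are short-lived lipid mediators made from arachidonic acid, which cytosolic phospholipase A2 cuts out of membrane lipids. Cyclooxygenases turn it into prostaglandin H2, from which terminal synthases make prostaglandin E2 and the other prostanoids, while 5-lipoxygenase with its activating protein makes leukotriene A4, the precursor of the neutrophil attractant leukotriene B4. Neutrophils are known for leukotriene B4, for a cyclooxygenase that is switched on by inflammatory signals, and for prostaglandin E2 receptors that raise cyclic AMP.

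Libraries held between 1094335 and 11932653 counts, with the lowest median, 2408608 counts, in stimulated LTβRΔN neutrophils. Levels are given as CPM, a gene's counts scaled to the size of its library with edgeR's TMM factors, and fold changes with their standard errors (SE) come from edgeR's quasi-likelihood fit of all 16 libraries, called at an adjusted p under 0.05. The deleted receptor gene Ltbr had 84.6 to 154 CPM in control and 0.705 to 18.1 CPM in LTβRΔN libraries. The cytokine target Cish had 0.426 to 5.6 CPM in libraries labelled unstimulated and 240 to 589 CPM in those labelled stimulated, so both labels held in every library. Neutrophil markers summed to between 43986 and 74659 CPM, T cell markers to at most 15.4 CPM and B cell markers to at most 1.6 CPM. Eosinophil markers summed to 38.4 to 109 CPM, nearly all of it Siglec5, with 3 of those 5 genes at 0 in every library. Basophil or mast cell markers summed to 1378 to 2345 CPM, nearly all of it Hdc, with 4 of those 6 genes at 0 in every library. Platelet and immature neutrophil markers were highest in stimulated control replicate 3, at 206 and 764 CPM. An index code in the sample titles followed the treatment: it was S520 in every unstimulated LTβRΔN library and in unstimulated control replicates 1 and 2, and S521 in unstimulated control replicate 3 and in all 9 stimulated libraries.

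Scaled by exon length, the members fell into a high and a low class. Alox5ap was highest, with a median over the 16 libraries of 629 CPM per kb and a range of 528 to 706. Pla2g7 followed with a median of 429 CPM per kb (lowest library 353), Ptgs2 with 253 (55.7 to 345) and Alox5 with 126 (89.7 to 161). Those 4 genes were separated from the other 6 by a wide gap, since Lta4h had a median of 7.24 CPM per kb and Ptger2 one of 7.11. The medians of Ptgs1, Pla2g4a and Ptger4 were 1.74, 1.49 and 1.39 CPM per kb, and that of Ptges was 0. Alox5ap and Pla2g7 did not overlap with each other or with the genes ranked next to them in any library, whereas Ptgs2 and Alox5 overlapped, as did every neighbouring pair from Lta4h downwards. Levels per kb depend on the annotated exons and do not account for the isoform a neutrophil uses.

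**Figure D1:**
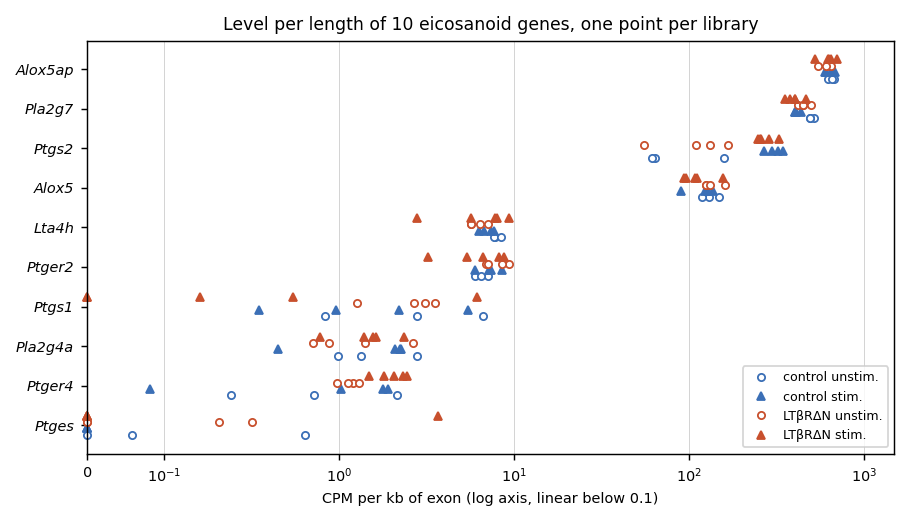
Level per length of the 10 genes in each of 16 libraries, in CPM per kb of exon on a log axis that is linear below 0.1; circles are unstimulated and triangles stimulated libraries, control in blue and LTβRΔN in orange. Alox5ap, Pla2g7, Ptgs2 and Alox5 lie above 55 CPM per kb in every library, the other 6 genes below 10, and the triangles of Ptgs2 lie to the right of its circles in both genotypes.

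The only member called as changed with the treatment label was Ptgs2 (chromosome 1 from 150100031 to 150108227, plus strand, GRCm38), which encodes the inducible cyclooxygenase COX-2. In control neutrophils it had 293, 284 and 725 CPM without stimulation and 1241, 1367, 1478 and 1579 CPM with it. The LTβRΔN libraries had 770, 255, 507 and 606 CPM without and 1182, 1505, 1325, 1142 and 1177 CPM with stimulation. Stimulated libraries were all above unstimulated libraries in both genotypes, and the highest unstimulated level, 770 CPM, was below the lowest stimulated one, 1142 CPM. In either direction, the groups did not overlap for 12.7% of tested genes in controls and 7.28% in LTβRΔN neutrophils. The control means were 434 ± 252 CPM (SD, n = 3) unstimulated and 1416 ± 146 CPM (SD, n = 4) stimulated, which the fit gave as a 3.27-fold rise (95% interval 2.14 to 4.98) or 1.71 ± 0.294 (SE) in log2 units, with an edgeR adjusted p of 0.000459. The LTβRΔN means were 535 ± 216 CPM (SD, n = 4) and 1266 ± 151 CPM (SD, n = 5), a rise of 2.35-fold (95% interval 1.64 to 3.39) or 1.24 ± 0.253 (SE) in log2 units, with an edgeR adjusted p of 0.00309. Ptgs2 was thus 1 of 9 tested members called in each genotype, where 3.48% of all tested genes were called in controls and 3.73% in LTβRΔN neutrophils, 2.82% and 2.98% of them as higher. By the size of its fold it stood 113th among 260 genes called higher in controls and 145th among 275 in LTβRΔN neutrophils. Its mean level rose from rank 362 to rank 114 of 9213 genes in controls and from 306 to 126 in LTβRΔN neutrophils.

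The index code moved with this result. Unstimulated control replicate 3, the only unstimulated library with S521, had 725 CPM, compared with 284 and 293 CPM in the S520 libraries of its group. Within S521, control Ptgs2 differed by a log2 fold change of 0.94 between that single library and the 4 stimulated ones (edgeR adjusted p = 0.393, the lone library being assumed to vary like the other groups). With the index as a covariate the log2 fold change was 0.97 in controls (adjusted p = 0.306) and -0.09 in LTβRΔN neutrophils (adjusted p = 1). The index term of that fit rests on the 3 unstimulated control libraries alone. Unstimulated LTβRΔN libraries, all with S520, spanned 255 to 770 CPM, and for LTβRΔN neutrophils the index and the treatment cannot be told apart. Monocyte and macrophage markers, from cells that can also express Ptgs2, summed to 461 to 576 CPM in unstimulated and 430 to 546 CPM in stimulated control libraries, and to 432 to 656 and 418 to 488 CPM in LTβRΔN libraries. Of those 7 markers, Csf1r (224 to 439 CPM), Ly6c2 (92.1 to 158 CPM) and Emr1 (38.1 to 101 CPM) were present in all 16 libraries and made up nearly all of the sum, while C1qa was at 0 in every library, Ccr2 and Cx3cr1 in 15 and F13a1 in 14. Their part in the result was not tested, and in bulk libraries more cells with a transcript and more transcript per cell cannot be told apart.

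**Figure D2:**
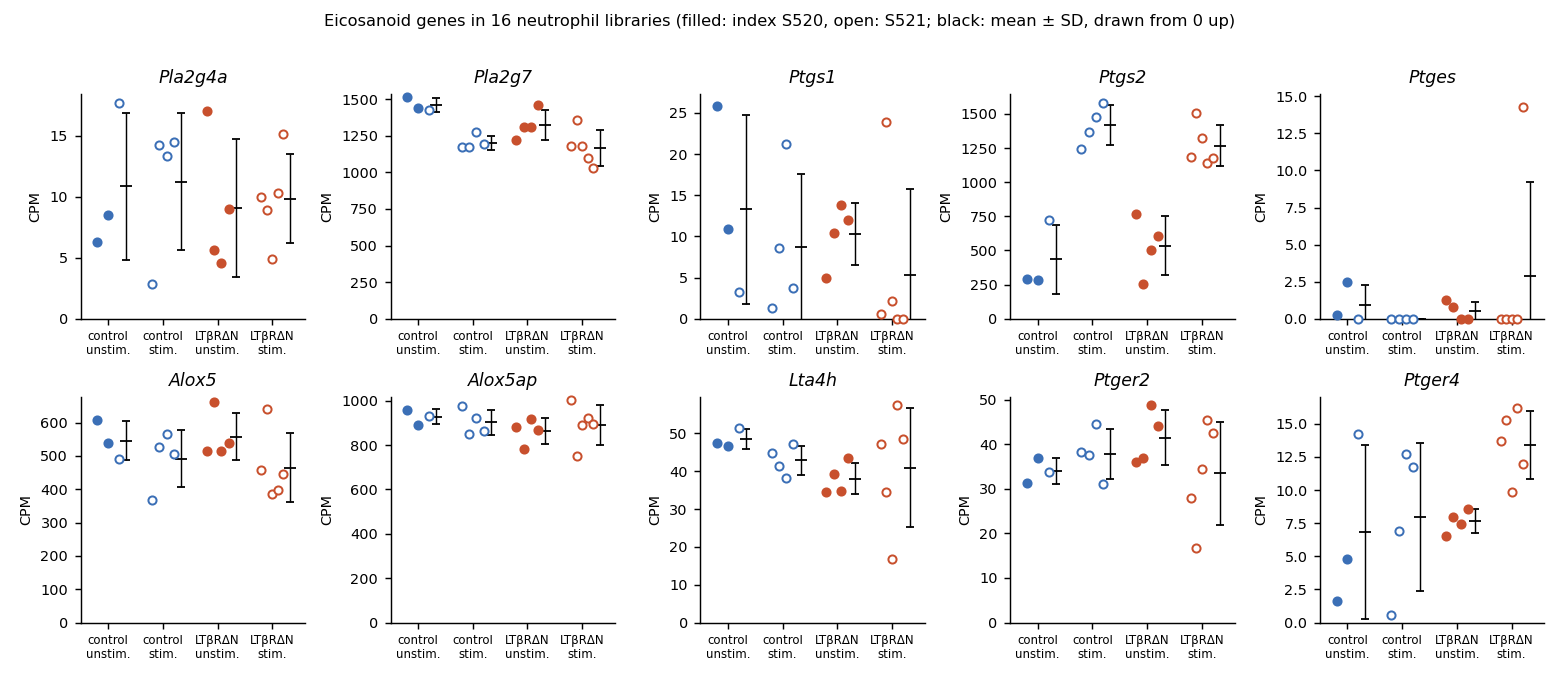
CPM of each of the 10 genes (linear axes from 0) in every library of the 4 groups; filled points have index S520, open points S521, and black bars give the mean ± SD of a group, cut at 0. Ptgs2 is at or above 1142 CPM in every stimulated library and at or below 770 in every unstimulated one, Alox5ap and Pla2g7 are steady, and Ptgs1, Pla2g4a, Ptges and Ptger4 scatter widely within groups.

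The windows around the annotated starts of Ptgs2 and its constitutive relative Ptgs1 are printed because these isozymes catalyse the same step and only Ptgs2 was called with stimulation. They are RefSeq windows on GRCm38.p6 of 250 bases before and 50 after the start, chr1:150099781-150100080 for Ptgs2 and chr2:36230176-36230475 for Ptgs1, both on the plus strand, with motif matches in capitals.
Ptgs2: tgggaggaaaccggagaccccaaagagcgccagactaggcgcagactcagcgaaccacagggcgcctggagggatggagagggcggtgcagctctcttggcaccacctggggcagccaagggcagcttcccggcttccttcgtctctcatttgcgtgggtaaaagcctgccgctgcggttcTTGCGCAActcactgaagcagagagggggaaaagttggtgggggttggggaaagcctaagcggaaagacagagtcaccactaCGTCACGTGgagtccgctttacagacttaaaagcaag
Ptgs1: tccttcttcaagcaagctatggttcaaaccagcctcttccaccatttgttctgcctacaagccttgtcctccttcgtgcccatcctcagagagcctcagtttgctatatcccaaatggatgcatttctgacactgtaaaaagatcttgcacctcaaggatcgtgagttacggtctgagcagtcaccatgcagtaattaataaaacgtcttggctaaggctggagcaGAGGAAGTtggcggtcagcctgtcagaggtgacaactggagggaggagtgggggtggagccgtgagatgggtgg
Both strands were searched for 8 motifs. The Ptgs2 window held a C/EBP motif (TTGCNNAA) at position -69 from the start, a CRE core (TGACG, here on the opposite strand) at +14 and an overlapping E-box (CACGTG) at +17. Of all 32851 windows, 10.8%, 20.8% and 7.15% held these motifs. The Ptgs1 window held none of the 3, and its only match was the ETS motif GAGGAAGT at -24, which 3.2% of windows held. Windows were found for 9 of the 10 members, Alox5ap being the one without, and no member's window matched the NF-kB motif, which 8.46% of windows matched, or the AP-1 motif TGANTCA, which 7.81% matched. Among the other windows, that of Ptger2 held TTGCNNAA at +40 and that of Pla2g7 the STAT motif TTCNNNGAA at -145 (8.3% of all windows). In 1 of 2 windows of Pla2g4a the TATA box letters TATAAA (13.6%) lay at -200 on the opposite strand. A match is only a string of letters, and its absence says only that those letters are not in the window. Downstream of the stop codon the Ptgs2 transcript carried 14 copies of ATTTA, the core of the AU-rich elements known to shorten the life of many inducible mRNAs, a number reached by 3.07% of 18580 genes. The stretch searched was long, 2445 bases where the median gene has 957, and per kb Ptgs2 had 5.73 copies, fewer than Pla2g4a with 9.03 and close to Alox5ap with 4.77 and Pla2g7 with 4.5. Ptgs1 carried none.

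The genes whose pattern over the 16 libraries was most like that of Ptgs2, by the root mean square difference of centred log2 CPM, were Niacr1 (0.251), Junb (0.261) and Csrnp1 (0.265), with a median of 1.13 over all 9212 genes compared. Since they were chosen by this pattern, a rise with the label was fixed by the choice, and their log2 fold changes are a description only, at 1.47 to 1.87 in controls and 1.09 to 1.65 in LTβRΔN neutrophils.

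Ptgs1 (chromosome 2 from 36230426 to 36252272, plus strand), which encodes the constitutive cyclooxygenase COX-1 abundant in platelets, was low and had the largest dispersion of the tested members over all groups together. Unstimulated control libraries had 25.8, 10.9 and 3.23 CPM and stimulated ones 1.35, 8.54, 21.2 and 3.75 CPM. In LTβRΔN neutrophils the unstimulated libraries had 4.95, 10.4, 13.8 and 12 CPM and the stimulated ones 0.623, 23.9, 2.11, 0 and 0 CPM. The groups overlapped in both genotypes, and 4 of 5 stimulated LTβRΔN libraries were below every unstimulated one while the remaining library, replicate 2, was above them all. A count of 0 in replicates 4 and 5 allowed up to 1.35 and 1.16 CPM. The log2 fold change was -0.61 in controls (SE 1.09, edgeR adjusted p = 0.947) and -0.79 in LTβRΔN neutrophils (SE 0.989, adjusted p = 0.857), with 95% intervals from -2.87 to 1.65 and from -2.83 to 1.26. Without stimulated replicate 2, the LTβRΔN log2 fold change was -4.15 with an adjusted p of 0.0307, so that a single library decided the call. Platelet markers were at their highest, 206 CPM in sum, in stimulated control replicate 3, where Ptgs1 was 21.2 CPM. Elsewhere their sum was 8.42 CPM in stimulated LTβRΔN replicate 2 and 24.2 CPM in unstimulated control replicate 1, the highest Ptgs1 libraries, and 55.4 CPM in stimulated control replicate 1, where Ptgs1 was 1.35 CPM. The exons of Ptgs1 overlap an antisense gene, Gm43621, and the strand setting of the counting is not given in the sources used here.

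Within a library the counts of Ptgs2 and Ptgs1 were also compared directly, as the log2 ratio of counts with a pseudocount of 0.5, which no scaling factor touches. Control neutrophils had a ratio of 5.33 ± 2.21 unstimulated (SD, n = 3) and of 7.97 ± 1.6 stimulated (SD, n = 4), and the exact permutation test gave p = 0.143 (adjusted p = 0.381). In LTβRΔN neutrophils it was 5.67 ± 1.15 (SD, n = 4) and 10 ± 2.7 (SD, n = 5), a difference of 4.38 with an exact permutation p of 0.0317. That p did not pass adjustment over the 16 ratio tests made (adjusted p = 0.169), and the ratios of libraries with a Ptgs1 count of 0 depend on the pseudocount.

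Ptges (chromosome 2 from 30889471 to 30929863, minus strand), the inducible synthase that makes prostaglandin E2 from the product of COX-2, was close to undetectable. The genes Ptges3 and Ptges2, listed as prostanoid synthases and named here after their values were seen, were measured in every library. They had 55.8 to 112 and 5.84 to 37.2 CPM, and whether they make prostaglandin E2 in these cells was not tested. Ptges3 had log2 fold changes of -0.54 in controls and -0.46 in LTβRΔN neutrophils with stimulation (edgeR adjusted p = 0.136 and 0.158). Ptges was counted 71 times in all and was at 0 in 11 of 16 libraries, including all 4 stimulated control libraries, where a count of 0 allowed at most 0.297 to 0.712 CPM. The unstimulated control libraries held 3, 22 and 0 counts, the unstimulated LTβRΔN libraries 8, 1, 0 and 0. In stimulated LTβRΔN neutrophils all 37 counts came from replicate 5, at 14.3 CPM, and the other 4 libraries held none. Ptges was therefore not tested, and its libraries do not separate by genotype. Relative to Ptgs2, its log2 ratio of counts in controls was -10.1 ± 3.27 unstimulated (SD, n = 3) and -14.3 ± 0.604 stimulated (SD, n = 4), without overlap. The exact permutation p was 0.0286, the smallest that 4 against 3 libraries allow (adjusted p = 0.169 over 16 tests), and all 4 stimulated ratios rest on a Ptges count of 0.

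**Figure D3:**
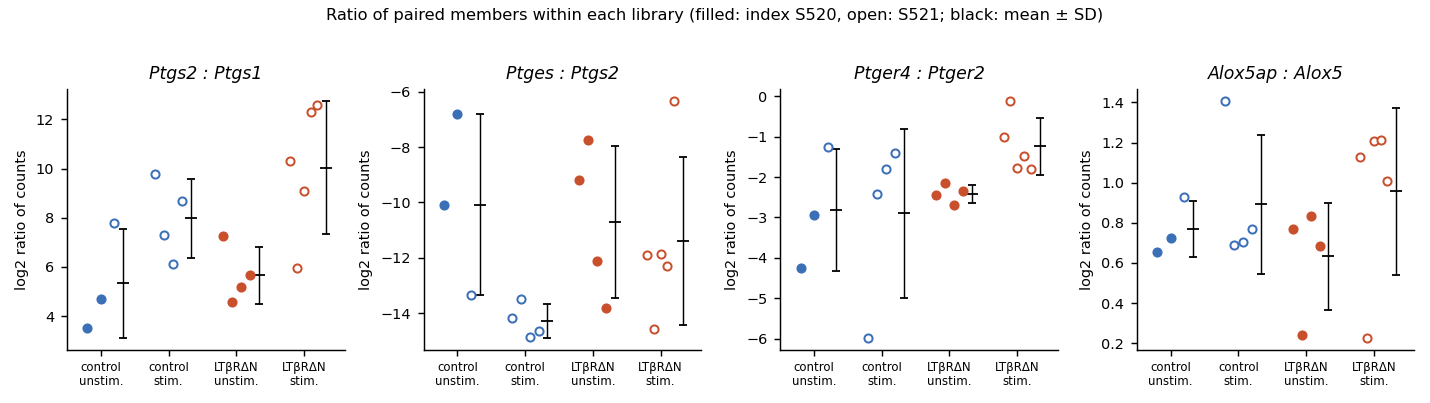
Log2 ratio of the counts of 2 members within each library (pseudocount 0.5) for Ptgs2 to Ptgs1, Ptges to Ptgs2, Ptger4 to Ptger2 and Alox5ap to Alox5; filled points have index S520, open points S521, and black bars are the mean ± SD. Ptgs2 to Ptgs1 spans 3.51 to 12.6 while Alox5ap to Alox5 stays between 0.227 and 1.41.

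The leukotriene genes were high for the first step and low for the last, and none was called as changed with the label. Alox5ap (chromosome 5 from 149264767 to 149288153, plus strand), the membrane protein that presents arachidonic acid to 5-lipoxygenase, had 957, 891 and 934 CPM in unstimulated and 976, 850, 922 and 863 CPM in stimulated control libraries. LTβRΔN libraries had 880, 782, 920 and 869 CPM without and 1003, 749, 890, 921 and 895 CPM with stimulation. All 4 groups overlapped, and the 95% interval of the fold ran from 0.828 to 1.14 in controls and from 0.894 to 1.19 in LTβRΔN neutrophils (edgeR adjusted p = 0.968 and 0.942). Alox5 (chromosome 6 from 116410077 to 116461178, minus strand), 5-lipoxygenase itself, ranged from 491 to 608 CPM in unstimulated and from 368 to 567 CPM in stimulated controls, and from 516 to 661 and from 385 to 640 CPM in LTβRΔN neutrophils. Its log2 fold change was -0.15 in controls (SE 0.167, adjusted p = 0.892) and -0.26 in LTβRΔN neutrophils (SE 0.148, adjusted p = 0.523). In LTβRΔN neutrophils replicate 2 was the highest library of both labels for Alox5 and the lowest of both for Alox5ap. The log2 ratio of Alox5ap to Alox5 lay between 0.227 and 1.41 over all 16 libraries, with no test under an adjusted p of 0.492.

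Lta4h (chromosome 10 from 93453411 to 93484875, plus strand), the hydrolase that completes leukotriene B4, had 47.4, 46.7 and 51.5 CPM in unstimulated controls and 34.6, 39.2, 34.9 and 43.5 CPM in unstimulated LTβRΔN neutrophils. Every LTβRΔN library was below every control library there, as for 5.71% of tested genes in either direction, and the log2 fold change of -0.35 (SE 0.28) had an edgeR adjusted p of 1. Under stimulation the levels were 38.3 to 47.1 CPM in control and 16.9 to 57.5 CPM in LTβRΔN libraries; the genotypes overlapped. The lowest value, 16.9 CPM, was that of stimulated LTβRΔN replicate 3, a library of 1506153 counts in which Lta4h was counted 24 times.

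Of the phospholipases, Pla2g4a (chromosome 1 from 149829618 to 149961290, minus strand), the cytosolic enzyme that releases arachidonic acid, was low, with 6.31 to 17.7 CPM in unstimulated and 2.84 to 14.5 CPM in stimulated controls. Its LTβRΔN levels were 4.53 to 17 and 4.93 to 15.1 CPM. Counts of 7 to 134 per library left a 95% interval of 0.441 to 2.44 for its fold in controls and 0.494 to 2.33 in LTβRΔN neutrophils. Pla2g7 (chromosome 17 from 43568098 to 43612201, plus strand), the secreted hydrolase that breaks down platelet-activating factor and oxidised phospholipids, was in contrast among the steadiest members. Unstimulated control libraries had 1514, 1441 and 1426 CPM and stimulated ones 1170, 1175, 1272 and 1193 CPM. These control groups did not overlap, as was the case for 12.7% of tested genes, and the log2 fold change was -0.28 (SE 0.109, unadjusted p = 0.0172, edgeR adjusted p = 0.249). In LTβRΔN neutrophils the libraries overlapped, with 1220 to 1461 CPM without and 1027 to 1354 CPM with stimulation and a log2 fold change of -0.18 (SE 0.0962, adjusted p = 0.455). The call depended on the scaling: by library totals alone the log2 fold changes were -0.53 (adjusted p = 0.00376) and -0.37 (adjusted p = 0.0243), where the median of all genes was itself shifted to -0.27 and -0.21, compared with -0.02 and -0.03 under TMM.

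The receptor genes encode the EP2 and EP4 receptors, through which prostaglandin E2 raises cyclic AMP. Ptger2 (chromosome 14 from 44988195 to 45003820, plus strand) had 31.3, 37 and 33.7 CPM in unstimulated and 38.2, 37.5, 44.5 and 31 CPM in stimulated control libraries. Libraries of LTβRΔN mice had 35.9, 36.8, 48.9 and 44.1 CPM without and 28, 16.7, 34.5, 45.4 and 42.6 CPM with stimulation. The groups overlapped in both genotypes, and the log2 fold changes were 0.15 (SE 0.285) and -0.33 (SE 0.258), with edgeR adjusted p of 0.948 and 0.713. Ptger4 (chromosome 15 from 5206661 to 5244187, minus strand) had 1.6, 4.76 and 14.2 CPM in unstimulated and 0.541, 6.88, 12.7 and 11.7 CPM in stimulated controls. In LTβRΔN neutrophils it had 6.5, 8, 7.47 and 8.6 CPM without and 13.7, 15.3, 9.86, 16.2 and 12 CPM with stimulation. There every stimulated library was above every unstimulated one, as for 7.28% of tested genes in either direction, but the log2 fold change of 0.82 (SE 0.652) had an edgeR adjusted p of 0.716. In controls the groups overlapped, with a log2 fold change of 0.23 (SE 0.717, adjusted p = 0.973). The log2 ratio of Ptger4 to Ptger2 counts in LTβRΔN neutrophils was -2.41 ± 0.226 unstimulated (SD, n = 4) and -1.24 ± 0.701 stimulated (SD, n = 5), without overlap, and its exact permutation p of 0.0238 became 0.169 after adjustment over 16 tests. The index code moved with this difference too, since all unstimulated LTβRΔN libraries carried S520 and all stimulated ones S521. In controls the S521 unstimulated library had 14.2 CPM of Ptger4 against 1.6 and 4.76 CPM in the S520 libraries. Stimulated controls, all S521, ran from 0.541 to 12.7 CPM. Those sharing a number in their column names with the 14.2, 1.6 and 4.76 CPM libraries had 11.7, 0.541 and 6.88 CPM. Neither the index nor this number was tested as a cause. Exons of both receptor genes overlap antisense genes (Ttc33 and Gm15937 for Ptger4), as do those of Alox5ap (Gm19719) and Pla2g7 (1700071M16Rik), and without the strand setting those reads cannot be told apart.

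**Figure D4:**
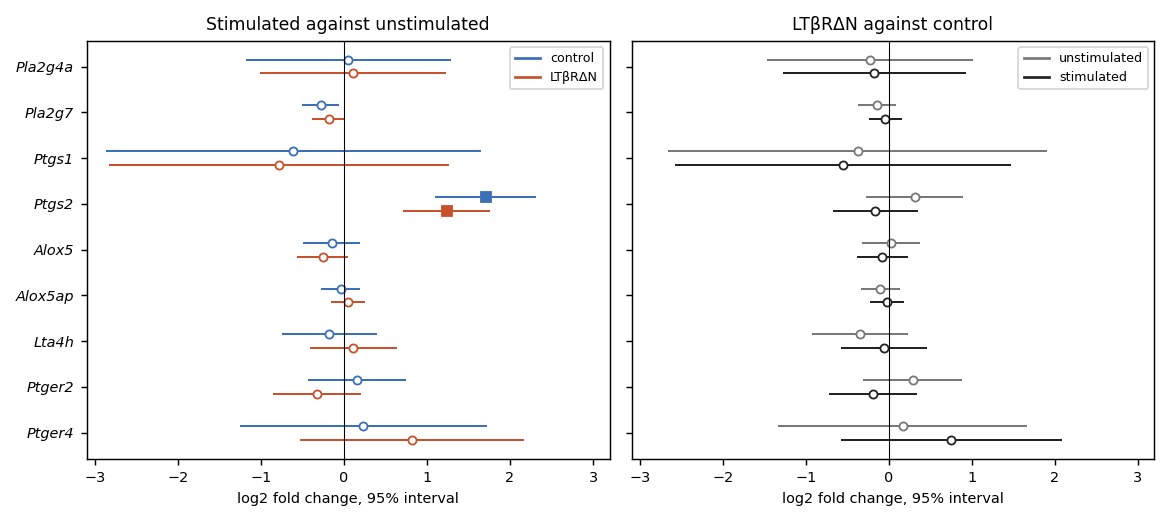
Log2 fold change with its 95% interval for the 9 tested members, stimulated against unstimulated in control (blue) and LTβRΔN (orange) neutrophils on the left, LTβRΔN against control without (grey) and with stimulation (black) on the right; filled squares passed an edgeR adjusted p of 0.05. Only Ptgs2 on the left is filled, at 1.71 and 1.24, and the intervals of Ptgs1, Pla2g4a and Ptger4 are the widest.

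Between genotypes no member was called, unstimulated or stimulated, where 0.0217% of tested genes were called in each case, and 0 of the 9 had an unadjusted p under 0.05, as had 258 and 591 of all 9213 genes. For Ptgs2 the log2 fold change of LTβRΔN against control neutrophils was 0.31 without stimulation (SE 0.281, edgeR adjusted p = 1) and -0.16 with it (SE 0.245, adjusted p = 0.974). The 95% intervals of the fold ran from 0.828 to 1.86 and from 0.629 to 1.27. Under stimulation the genotypes overlapped for all 9 tested members, and groups did not overlap for 1.31% of tested genes. The difference between the genotypes' responses was tested as an interaction: it was -0.47 for Ptgs2 on the log2 scale (SE 0.373, edgeR adjusted p = 1), with a 95% interval from -1.24 to 0.30. The interaction was called for 0 members and for 0.00% of tested genes, while 342 genes and 0 members had an unadjusted p under 0.05 in it. Of the 9 tested members, 4 had positive log2 fold changes with stimulation in controls and 5 in LTβRΔN neutrophils, with medians of -0.04 and 0.05 beside -0.02 and -0.03 over all tested genes.

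The rest of the pathway was read from 6 lists of 88 genes, of which 86 were in the table, 25 were at 0 in every library and 44 were tested. With stimulation 2 of the 44 were called in each genotype, both higher and both in the list of the platelet-activating factor and resolvin pathway, and between genotypes and in the interaction 0 were called. That share is near the 3.48% and 3.73% called over all tested genes. Ptafr, the receptor for platelet-activating factor, had 342, 251 and 313 CPM in unstimulated and 594, 878, 856 and 820 CPM in stimulated control libraries, and rose by 1.38 ± 0.163 (SE) in log2 units (edgeR adjusted p = 2.16e-06). In LTβRΔN neutrophils it had 245 to 327 CPM without and 624 to 893 CPM with stimulation, with a log2 fold change of 1.32 (SE 0.143, edgeR adjusted p = 6.53e-07). The groups of Ptafr did not overlap in either genotype, as for 12.7% of tested genes in controls and 7.28% in LTβRΔN neutrophils, in either direction. Fpr2, a receptor for formyl peptides and for lipoxin A4, had 75.6, 54.6 and 73.7 CPM in unstimulated and 182, 128, 132 and 94.4 CPM in stimulated controls, and its log2 fold change was 0.98 in both genotypes (adjusted p = 0.00311 and 0.000852). Without unstimulated control replicate 2 the call of Fpr2 in controls was lost, with a log2 fold change of 0.84 (edgeR adjusted p = 0.0529). The exons of Fpr2 overlap the gene Fpr3 on the same strand, so no strand setting could separate reads there. Within index S521, where a single unstimulated control library remains, the log2 fold changes were 1.31 for Ptafr (adjusted p = 0.00309) and 0.84 for Fpr2 (adjusted p = 0.393). With the index as a covariate they were 1.33 and 0.86 in controls (adjusted p = 0.00365 and 0.328) and 1.24 and 0.81 in LTβRΔN neutrophils (adjusted p = 0.0573 and 0.929). By list, 0 of 12 tested genes of phospholipase A2 and arachidonate supply, 0 of 5 prostanoid synthases, 0 of 6 lipoxygenases and leukotriene enzymes, 0 of 7 genes of inactivation and transport and 0 of 4 other eicosanoid receptors were called in either genotype. At an unadjusted p under 0.05 there were 6 of the 44 in controls and 9 in LTβRΔN neutrophils, beside 1049 and 1199 of all 9213 genes.

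The enzymes that define other branches were low or at 0. Ptgds and Ptgis, the synthases of prostaglandin D2 and prostacyclin, and Alox15, a lipoxygenase of macrophages and eosinophils, were at 0 in all 16 libraries. Ltc4s, the synthase of leukotriene C4, had a median of 1.17 CPM and Alox12, the platelet lipoxygenase, one of 1.3 CPM. Hpgds, the haematopoietic prostaglandin D synthase, was counted 68 times in all, and Tbxas1, thromboxane synthase, had a median of 23.1 CPM with a range of 14.7 to 40.2.

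**Figure D5:**
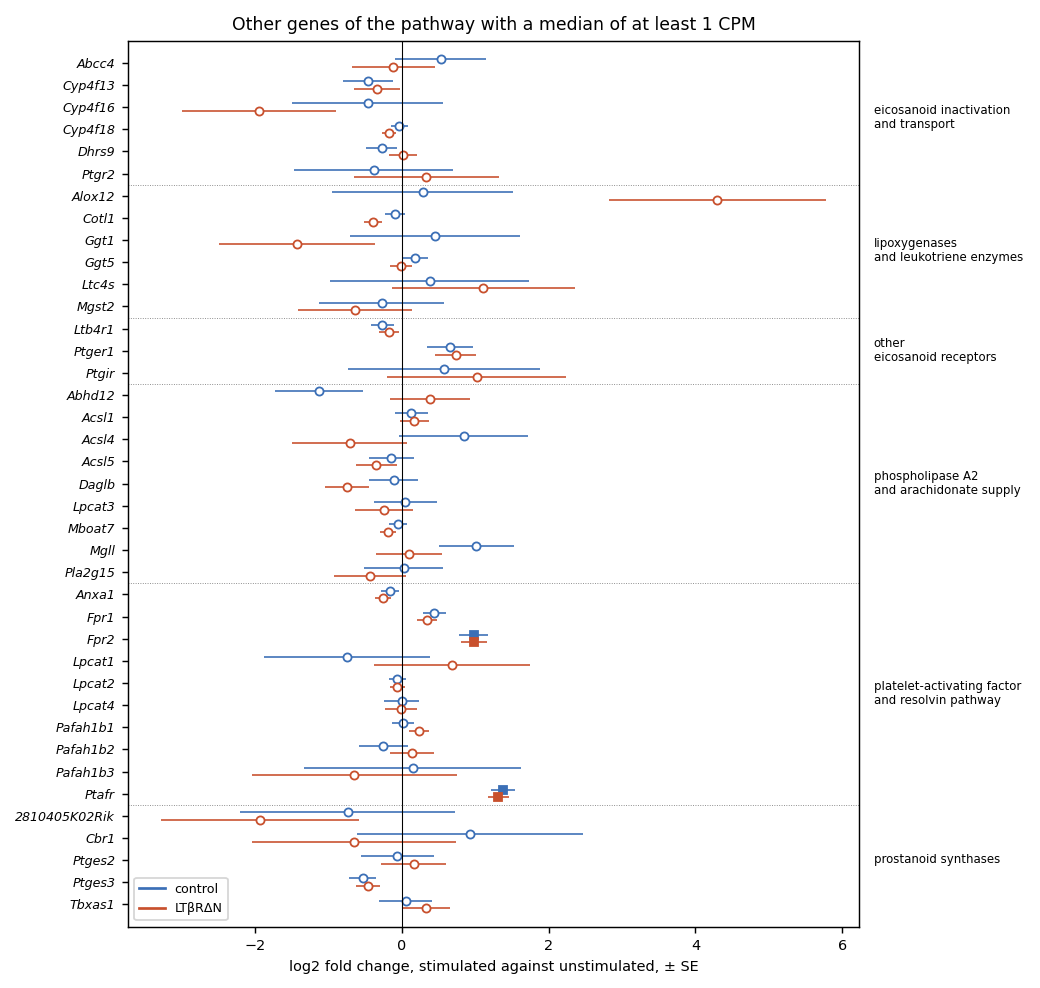
Log2 fold change (± standard error) of stimulated against unstimulated libraries for the 39 other tested pathway genes with a median of at least 1 CPM, in control (blue) and LTβRΔN (orange) neutrophils, grouped by list; filled squares passed an edgeR adjusted p of 0.05. Only Ptafr and Fpr2 are filled, and the standard errors of low genes such as Cbr1 and Pafah1b3 reach 1.54 and 1.48 in controls.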

How the data were processed

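Blood neutrophils enriched by magnetic negative selection were sequenced as 16 single-end RNA libraries, and the authors deposited 1 table of whole-number read counts per gene symbol, without normalization. The submitters' processing notes name mm10, Bowtie 1.0.0, TopHat 1.4.1 and HTSeq 0.7.1. Columns were assigned to samples by their names, with replicates numbered in accession order. Genes were kept by filterByExpr (minimum count 10, minimum total 15) and fitted with edgeR 4.0.16 in R 4.3.3 (TMM, 4 group means, quasi-likelihood test, Benjamini-Hochberg over 9213 genes), from which 5 comparisons were taken. On counts simulated for the control comparison over 9213 genes, 25% of 200 genes changed 2-fold and 50.5% of those changed 4-fold were recovered, and 86.7% and 100% of those above 100 CPM. Ratios were tested by exact permutation of the group labels (two-sided). Exon lengths came from GENCODE M21 (GRCm38). Library pairs of a group differed by more than sampling noise (25 pairs, chi-square divided by degrees of freedom of 6.82 to 47.8). Alternatives were other scalings and filters, DESeq2 1.42.0, the index as a covariate, other libraries and thresholds. Intervals of fold changes rest on the standard errors of the edgeR fit, which include the spread between these libraries as well as counting error. Limits from a count of 0 (3 counts) cover counting error only. The named genes are the 10 members, Ltbr and Cish as checks, the other pathway genes that were called or define a branch, and the 3 genes most like Ptgs2. The members and lists were chosen with earlier results of these data known.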

Additional observations from a re-analysis of the deposited data

Results flagged for a closer look

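Single libraries that stood far from the rest of their group were looked for in 29 groups of 4 or 5 libraries of the members. The measure was the gap to the nearest library relative to the group's range, and 5 were found. The number given by chance, about 1.45, assumes normally distributed values and independent groups. Neither was tested, so no excess over chance is claimed. Ptgs1 had 23.9 CPM in stimulated LTβRΔN replicate 2, compared with 0 to 2.11 CPM in the other 4 libraries. Ptges had 14.3 CPM in stimulated LTβRΔN replicate 5 and was at 0 in the other 4. Alox5 had 661 CPM in unstimulated LTβRΔN replicate 2 (515.6 to 540.0 CPM in the others) and 640.0 CPM in stimulated LTβRΔN replicate 2 (385 to 459 CPM in the others). The columns of these 2 libraries carry the same number in their names. Pla2g4a had 2.84 CPM in stimulated control replicate 1, compared with 13.3 to 14.5 CPM in the other 3. The causes were not tested.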

How the results depend on the processing

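The call of Ptgs2 as the 1 member changed with stimulation kept its direction and its side of the threshold in both genotypes with DESeq2's size factors, upper-quartile scaling, library totals, both filters on low counts, DESeq2's test, the compared groups only and every library left out. The log2 fold change without single libraries lay between 1.46 and 2.29 in controls and between 1.01 and 1.46 in LTβRΔN neutrophils. It was lost with the index as a covariate, where 0 members were called in both genotypes, 1 list gene in controls and 0 in LTβRΔN neutrophils, and within index S521, an alternative chosen after seeing the data, where 0 members and 1 list gene were called in controls. Ptgs2 then had log2 fold changes of 0.97 in controls and -0.094 in LTβRΔN neutrophils, and 0.94 within S521. By library totals 2 members were called in each genotype (Ptgs2 and Pla2g7) and 4 and 6 list genes. Leaving out single libraries gave 1 to 2 list genes in controls and 1 to 2 members in LTβRΔN neutrophils, 2 without stimulated replicate 2 (Ptgs1 and Ptgs2). The number in the column names was shared between 7 unstimulated and 7 stimulated libraries. Deviations of same-numbered libraries correlated by 0.021 to 0.069, and 13 of 14 libraries correlated best with their own number. The labels do not say whether the number marks pairs. The main fit and the exact permutation tests did not use it and treated all libraries as independent. With this number as a replicate block, 1 member and 2 list genes were called in each genotype, Ptgs2 at 1.83 and 1.34, and no other call changed.

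Directions of members that were not called depended on the settings. With the index as a covariate the log2 fold changes in controls were 1.43 for Ptgs1, 0.0022 for Alox5, -0.66 for Pla2g4a and -0.83 for Ptger4, and in LTβRΔN neutrophils 1.71 for Ptgs1, -0.021 for Lta4h, -1.15 for Pla2g4a and -1.34 for Ptger4. Within S521 they were 1.41 for Ptgs1, -0.68 for Pla2g4a and -0.85 for Ptger4. By library totals they were -0.19 for Pla2g4a, -0.10 for Ptger2 and -0.012 for Ptger4 in controls, and -0.14 for Alox5ap, -0.072 for Lta4h and -0.059 for Pla2g4a in LTβRΔN neutrophils. With the replicate block they were -0.22 for Pla2g4a and -0.34 for Ptger4 in controls and -0.049 for Lta4h in LTβRΔN neutrophils. Without single libraries they ranged in controls from -1.57 to 0.30 for Ptgs1, from -0.23 to 0.59 for Pla2g4a and from -0.24 to 1.33 for Ptger4, and in LTβRΔN neutrophils from -0.00067 to 0.10 for Alox5ap, from -0.041 to 0.29 for Lta4h and from -0.12 to 0.61 for Pla2g4a. The same holds for 7 of 16 differences of log2 ratios, with ranges without single libraries of -0.57 to 1.56 (Ptgs2 to Ptgs1, genotypes unstimulated), -1.95 to 0.31 (Ptges to Ptgs2, LTβRΔN), -2.26 to 1.01 (Ptges to Ptgs2, genotypes unstimulated), -0.81 to 0.94 (Ptger4 to Ptger2, controls), -0.32 to 1.19 (Ptger4 to Ptger2, genotypes unstimulated), -0.049 to 0.20 (Alox5ap to Alox5, controls) and -0.0024 to 0.25 (Alox5ap to Alox5, genotypes stimulated). A pseudocount of 2 turned none of them. The causes were not tested. Counts of 0 to 339 per library limit what can be said of Ptgs1, Ptges, Pla2g4a and Ptger4.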
